A study of Mus musculus with 32 samples.

Results

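Molecular chaperones of the heat shock protein and DnaJ families were followed in cells of the mouse liver and in colorectal cancer (CRC) cells. The members were all genes on the array whose name in the scanner output starts with Hspa, Hspb, Hspd, Hspe, Hsph, Hsp90, Dnaja, Dnajb or Dnajc followed by a number or an Hsp90 letter. This gave 71 genes, measured by 108 of the 55681 probes, out of 34821 gene names on the array. They were 10 genes of the HSP70 family, 3 of the HSP110 family (Hsph1, Hspa4 and Hspa4l), 3 of the HSP90 family, the chaperonin genes Hspd1 and Hspe1, 8 small heat shock proteins, 4 DNAJA, 13 DNAJB and 28 DNAJC genes. One probe stood for each gene, the one with the highest variance over all channels, and 27 genes had several probes. No probe carried the name of Hspa1b, a near copy of Hspa1a, and the probe of Hspa1a may also read it, so values of Hspa1a are uncertain between these genes.

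The samples came from young male Balb/c mice. Sinusoidal endothelial cells (E), Ito cells (I, which are hepatic stellate cells) and Kupffer cells (K, resident macrophages) came either from healthy mice inoculated with PBS, called control (C), or from mice whose livers carried metastases of C26 colon carcinoma cells inoculated into the spleen, called TME (T) for tumor microenvironment. Tumor liver metastasis cells (TM) and CRC primary cells (TP) completed the 8 groups EC, ET, IC, IT, KC, KT, TM and TP, each with 4 samples. The liver cells were separated after collagenase perfusion by density gradients and adherence and were held in culture for up to a day, so that all 6 liver groups share enzyme treatment and culture. The sources used here do not give the number of mice behind a sample or how TM and TP cells were collected, so p-values measure the spread between these samples. The study calls them biological replicates. A control and a TME sample of the same number shared an array, as did TM and TP. The dyes were never swapped. Cy3 marked control and TM RNA and Cy5 the RNA of the other member of the pair, so dye and TME, and likewise dye and TP, cannot be told apart. Endothelial and Ito arrays lay on the first slide, and Kupffer and tumor arrays on the second.

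Chaperones bind unfolded or partly folded proteins. HSP70 proteins such as Hspa8 (cytosol), Hspa5 (endoplasmic reticulum) and Hspa9 (mitochondria) cycle between ATP and ADP states, DnaJ proteins bring clients and start ATP hydrolysis, HSP110 proteins such as Hsph1 exchange the nucleotide, HSP90 proteins act later in folding, and small heat shock proteins hold clients without ATP. Hspa1a, Hsph1, Dnajb1, Hsp90aa1 and Hspb1 are classical targets of heat shock factor 1, whereas Hspa5, Hsp90b1, Dnajb9, Dnajb11 and Dnajc3 are targets of the unfolded protein response of the endoplasmic reticulum. Heat, oxidants and the handling of tissue are known to switch on the first set, and a load of unfolded secretory protein the second.

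Promoters are printed for Hspd1 and Hspe1, which were both higher in tumors, and for 3 endoplasmic reticulum genes that lay lower in TME endothelial cells, where Dnajc3 alone passed the test. RefSeq promoters (GRCm38.p6, 250 bases before the start) were matched for 57 of the 71 genes, in 74 entries. They were searched on both strands for a heat shock element, written GAANNTTCNNGAA, and for an endoplasmic reticulum stress element, written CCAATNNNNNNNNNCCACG. The heat shock element was found in 4 of the 74 member entries (5.41%) and in 153 of 32851 promoters in all (0.466%). The endoplasmic reticulum stress element was found in 3 of the 74 entries (4.05%) and in 37 of all promoters (0.113%). A match is only a description of letters. Hspd1 and Hspe1, which encode the mitochondrial chaperonin and its lid, lie head to head, and their windows overlap. Capitals mark the letters of the element.
Hspe1, chr1:55087898-55088147, plus strand: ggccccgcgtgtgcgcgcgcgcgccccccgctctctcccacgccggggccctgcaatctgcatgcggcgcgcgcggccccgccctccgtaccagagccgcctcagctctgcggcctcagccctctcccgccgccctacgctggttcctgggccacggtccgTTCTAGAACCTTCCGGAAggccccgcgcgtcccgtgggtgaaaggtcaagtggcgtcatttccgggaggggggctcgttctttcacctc
Hspd1, chr1:55087933-55088182, minus strand: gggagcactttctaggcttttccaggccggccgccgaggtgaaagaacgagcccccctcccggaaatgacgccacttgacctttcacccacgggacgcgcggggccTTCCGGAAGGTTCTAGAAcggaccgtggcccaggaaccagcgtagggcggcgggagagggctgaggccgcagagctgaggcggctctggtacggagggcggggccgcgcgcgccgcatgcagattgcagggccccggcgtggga
The capitals are the same bases read from either strand, and they hold 2 overlapping matches. The other entries with the heat shock element were both of Dnajb6, in overlapping windows that hold the same match. Dnajb6 was called lower in tumors (-1.15, adjusted p = 8.34e-11 in limma). Promoters of Hspa1a, Hsph1, Dnajb1 and Hspb1 were found but held no exact match to the heat shock element as written, and Hsp90aa1 had no entry. Those of Dnajb9 and Dnajb11 held no exact match to the endoplasmic reticulum stress element as written. The search took only exact matches within 250 bases, so it cannot show that a promoter lacks an element. The next promoters belong to Hspa5, the HSP70 of the endoplasmic reticulum, Hsp90b1, its HSP90, and Dnajc3, a DnaJ protein that also inhibits the kinase Eif2ak3.
Hspa5, chr2:34771840-34772089, plus strand: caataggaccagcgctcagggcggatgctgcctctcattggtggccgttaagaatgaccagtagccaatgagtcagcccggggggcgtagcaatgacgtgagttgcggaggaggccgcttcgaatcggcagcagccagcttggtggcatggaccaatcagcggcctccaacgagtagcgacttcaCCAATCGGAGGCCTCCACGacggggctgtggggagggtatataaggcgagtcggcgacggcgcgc
Hsp90b1, chr10:86705445-86705694, minus strand: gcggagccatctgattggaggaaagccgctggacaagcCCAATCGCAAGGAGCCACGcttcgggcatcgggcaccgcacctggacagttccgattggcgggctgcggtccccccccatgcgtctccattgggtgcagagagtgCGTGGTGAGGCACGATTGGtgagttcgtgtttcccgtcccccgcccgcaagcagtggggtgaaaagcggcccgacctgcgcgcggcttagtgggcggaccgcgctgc
Dnajc3, chr14:118937682-118937931, plus strand: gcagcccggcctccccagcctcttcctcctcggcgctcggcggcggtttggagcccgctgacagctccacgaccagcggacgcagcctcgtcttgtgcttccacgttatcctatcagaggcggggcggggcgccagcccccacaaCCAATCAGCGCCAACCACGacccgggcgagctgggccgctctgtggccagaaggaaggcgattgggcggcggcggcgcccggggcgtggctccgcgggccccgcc

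Levels are log2 intensities of the table the authors deposited. Of the 71 genes, 44 were well above background in all 32 channels, 21 in some and 6 in none (Dnajb7, Dnajb13, Dnajc5b, Dnajc5g, Dnajc6 and Hspb3). Over all probes, between 38.4 and 57.1% of spots per channel were well above background. Several channels stood apart. The difference between TME and control on array 4 correlated with the mean of the other 3 arrays at r = -0.66 in Ito cells and at r = -0.60 in Kupffer cells, over 17050 probes well above background everywhere, whereas the other 6 arrays of these cells gave values between 0.19 and 0.47. IC replicate 4 was most like IT replicate 1 and IT replicate 4 most like IC replicate 1, and the same held for replicate 4 of KC and KT. So the Ito and Kupffer results are also given without replicate 4 and with the sign of array 4 turned. Both settings were singled out because array 4 ran against the others in these same data. They make the arrays more alike by construction, so their calls and adjusted p-values are descriptions only. IT replicate 2 was most like EC replicate 2, KC replicate 3 stood apart from the other control Kupffer channels, and TM replicates 2 and 3 differed from 1 and 4. EC replicates 1 and 4 were nearly alike (SD of their log2 differences 0.118), as were 2 and 3 (0.157), while the other EC pairs differed by 0.385 to 0.407. Marker genes were set against the labels. All 8 Kupffer markers measured were positive in KC minus EC and 4 of them passed the test. In KC minus IC none of the 8 passed it, with 6 positive and 2 negative. All 8 endothelial markers were well above background in every liver group. None of 8 Ito markers was higher in IC than in EC by the test, and Lrat, which defines quiescent Ito cells, averaged 4.16 in IC and was well above background in 2 of its 4 channels. Of 8 hepatocyte markers, 7 were higher in IC than in EC. In TM and TP, 6 of 8 endothelial markers and Alb, Ahsg, Apoa1, Ttr and Cps1 were well above background in no channel. Of 6 epithelial tumor markers, 1 was higher and 2 were lower in tumors than in liver cells by the test. Epcam and Cdh1 were well above background in no TM or TP channel, and Krt19 in no TM channel.

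The first question is how the tumor cells differed from the liver cells. The tumors (TM and TP, 8 channels) had the stress-inducible Hspa1a at or near background and far less Hspb1, while they held more of the mitochondrial chaperonin. With a single fit of all channels in limma and Benjamini-Hochberg adjustment over all probes, a gene was called at an adjusted p under 0.05. Of the 71 members, 24 were called higher in tumors (all genes, 35.2%) and 21 lower (all genes, 23.3%). The higher calls were near that share of all genes and the lower calls above it, a description with no test. Of the 28 DNAJC genes, 11 were called higher and 6 lower, near both shares of all genes. One of the 24, Dnajb7, was well above background in no channel. The median difference of the members was 0.06, beside 0.09 over all genes. Without overlap between tumor and liver channels, 14 members lay higher (all genes, 10.4%) and 9 lower (all genes, 8.37%). Both dyes are equally present on both sides of this comparison. Of 8 early response genes of cell isolation, 5 were lower and 1 higher in tumors (median -1.90), with the log2 of their summed intensity from 13.28 to 14.09 in TM and from 13.50 to 13.97 in TP against 14.81 to 16.39 in liver cells, and 5 of 6 neutrophil markers were lower and 1 higher. The part of these genes in the chaperone differences was not tested.

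**Figure D1:**
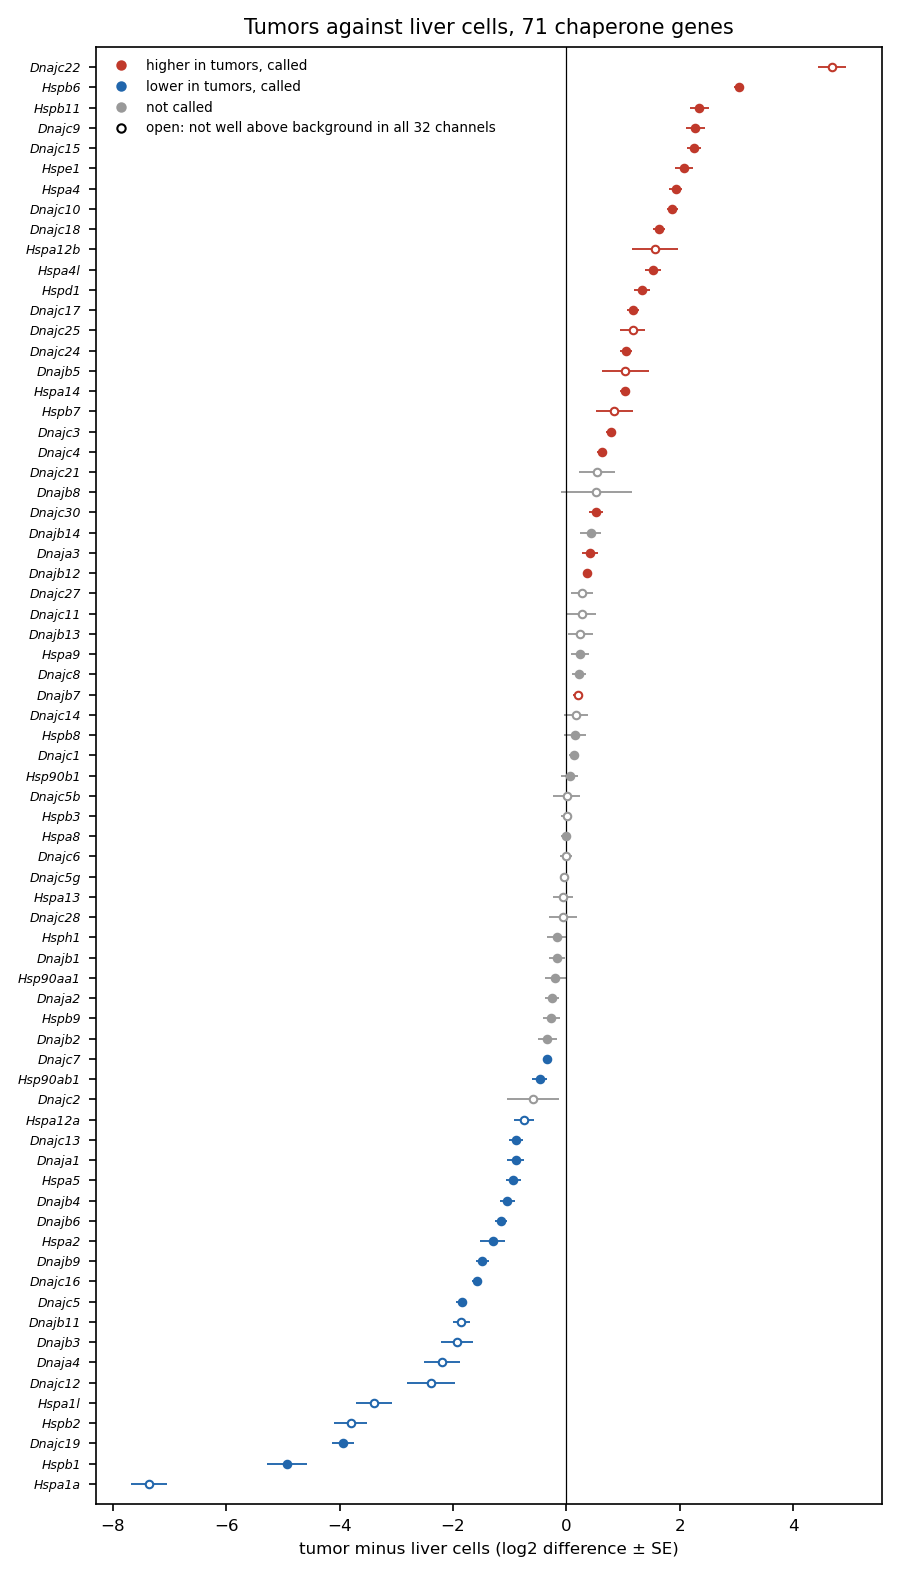
Difference between tumors (mean of TM and TP) and liver cells (mean of the 6 liver groups) for the 71 genes, in log2 units with the standard error of the fit as bars, sorted by size. Red genes were called higher in tumors, blue ones lower and grey ones neither, and open points mark genes not well above background in all 32 channels. Hspa1a lies at -7.36 and Dnajc22 at 4.69.

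Among the cytosolic genes of the heat shock response, Hspa1a, the inducible HSP70, was at or near background in tumors. Its level was 4.69, 4.03, 2.16 and 4.54 in TM and 2.12, 2.12, 4.04 and 4.15 in TP, and it ranged from 9.40 to 13.18 with a median of 10.69 in the 24 liver channels. The groups did not overlap, and only 1 of the 8 tumor channels was well above background. The fitted difference was -7.36 ± 0.32, adjusted p = 3.35e-17. Since none of the 4 TP channels was well above background, the fold is a bound: after normexp correction, loess and Aquantile scaling the liver cells lay at least 22.9-fold above the signal that TP could have shown. Hspb1, a small heat shock protein that binds unfolded clients and actin, was measured in all channels. It stood at 9.68, 6.73, 6.60 and 10.06 in TM and at 9.41, 9.28, 8.80 and 9.31 in TP, with TM replicates 2 and 3 lowest, and from 11.48 to 16.08 with a median of 13.59 in liver cells. The difference of -4.93 ± 0.36, adjusted p = 2.15e-12, left no overlap. Against the Kupffer cells of the same slide it was -3.14, and for Hspa1a -6.23.

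The partners of Hspa1a gave smaller differences, and some calls changed with the slide as a block. No tumor array lay on the first slide, so this block compares the tumors with Kupffer cells only. Hsph1, its nucleotide exchange factor, ranged from 10.92 to 12.01 with a median of 11.36 in tumors and from 10.63 to 13.51 with a median of 11.33 in liver cells (difference -0.16 ± 0.17, adjusted p = 0.466). Dnajb1, the main DnaJ partner of inducible HSP70, differed by -0.16 ± 0.14, adjusted p = 0.328, and the constitutive Hspa8 by -0.01 ± 0.08, adjusted p = 0.937. Tumor levels of these 3 genes lay inside the range of the liver cells, although the other 2 probes of Hspa8 were called lower, by 0.35 and 0.39. Hsp90aa1, the inducible cytosolic HSP90, differed by -0.19 ± 0.19, adjusted p = 0.406. Dnaja1, a DnaJ partner of Hspa8, was lower (-0.89 ± 0.15, adjusted p = 1.12e-05), but this call was lost with the slide as a block (-0.26, adjusted p = 0.319) and with scaling to the 75th percentile (-0.30, adjusted p = 0.1). With the slide as a block Hspa8 (0.87, adjusted p = 2.24e-05) and Hsp90aa1 (0.75, adjusted p = 0.0102) were higher, the same differences as against the Kupffer cells of slide 2, while Hsph1 (0.63, adjusted p = 0.122) and Dnajb1 (0.22, adjusted p = 0.365) were not called. So without the block 3 of the 7 measured genes of this set were lower (all genes, 23.3%) and none higher (all genes, 35.2%). With it 2 were lower (all genes, 21.7%) and 2 higher (all genes, 31.1%). Hspa1l, a testis HSP70 whose gene neighbours Hspa1a (probe at chr17:35115629-35115688 in mm9, that of Hspa1a at chr17:35107117-35107176), was well above background in no tumor channel and in 23 of 24 liver channels, and liver cells exceeded the signal TP could have shown at least 2.09-fold.

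The mitochondrial chaperonin was higher in tumors. Hspe1, the lid, ranged from 12.57 to 13.84 with a median of 13.20 in the 8 tumor channels and from 9.77 to 12.54 with a median of 11.42 in liver cells, so that no tumor channel overlapped a liver channel. The difference was 2.08 ± 0.16, adjusted p = 9.32e-12, or 4.23-fold. Hspd1, the barrel, was 2.52-fold higher (1.34 ± 0.14, adjusted p = 3.85e-09), with 14.53 to 15.52 with a median of 15.05 in tumors and 12.30 to 14.97 with a median of 14.02 in liver cells. The highest liver channels of Hspd1 overlapped the tumors. The other 2 probes of Hspe1 were higher by 1.36 and 1.47. Against the Kupffer cells of the same slide both differences were larger, 3.15 and 2.30. The pair shares the promoter window printed above. Hspa9, the mitochondrial HSP70, differed by 0.25 ± 0.16, adjusted p = 0.192 and was not called. With the slide as a block it was higher (1.02, adjusted p = 4.57e-05). Dnajc15, a DnaJ protein of the inner membrane, was higher (2.25 ± 0.13, adjusted p = 1.77e-14) with no overlap, and Dnaja3 and Dnajc30 were higher by 0.41 and 0.52. In all, 5 of the 8 mitochondrial members were higher (all genes, 35.2%) and 1 lower (all genes, 23.3%). That 1 was Dnajc19, a DnaJ protein of the import motor, and its 2 probes disagreed. The probe with the highest variance (chr3:33956895-33956954, mm9) was 3.94 lower in tumors, while the other (chr3:33976275-33976334) was 2.55 higher (adjusted p = 5.85e-14), both well above background in all channels, so the direction of Dnajc19 is not settled. A list of 8 other mitochondrial folding and quality genes had 5 higher (all genes, 35.2%) and 1 lower (all genes, 23.3%). Timm44 (import motor) stood at 0.98 and Trap1 (mitochondrial HSP90) at 0.81. The cytosolic chaperonin CCT, which folds actin and tubulin, had 7 of 8 subunits higher (all genes, 35.2%) and none lower (all genes, 23.3%). The differences of its subunits ran from 0.31 for Cct8 to 1.07 for Tcp1.

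The endoplasmic reticulum set was mixed. Hspa5 ranged from 15.09 to 15.96 with a median of 15.36 in tumors and from 15.76 to 17.30 with a median of 16.30 in liver cells (-0.93 ± 0.12, adjusted p = 3.00e-07), a call lost with scaling to the 75th percentile (-0.10, adjusted p = 0.521). Dnajb9, a DnaJ cofactor that marks the Ire1 branch of the unfolded protein response, was lower in every tumor channel, at 7.37, 8.10, 7.62 and 7.52 in TM and 7.56, 7.20, 7.58 and 7.26 in TP, against a range from 8.24 to 9.67 with a median of 8.98 in liver cells (-1.48 ± 0.12, adjusted p = 9.80e-12). Dnajb11, another DnaJ partner of Hspa5, was also called lower (-1.85), but on a probe well above background in 11 channels. Its brighter probe, well above background in all 32 channels, was 0.53 lower (adjusted p = 1.46e-05). In the other direction, Dnajc10, which reduces disulfide bonds for degradation, was higher with no overlap (1.87 ± 0.10, adjusted p = 2.13e-15), and Dnajc3 was higher (0.79 ± 0.09, adjusted p = 1.46e-08). Hsp90b1 differed by 0.06 (adjusted p = 0.774), and was higher with the slide as a block (0.57, adjusted p = 0.0284). In total 2 of the 8 members were higher (all genes, 35.2%) and 3 lower (all genes, 23.3%). Among 18 other genes of endoplasmic reticulum stress, 7 were higher and 5 lower, near the shares of all genes (35.2% and 23.3%). The lower ones included Ddit3 (-2.61) and Atf4 (-1.30), transcription factors of the stress response, and the highest difference in that list was 0.77.

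The largest fitted difference upward among the members was that of Dnajc22, a membrane DnaJ protein linked to endocytosis. It was 11.14, 10.40, 10.60 and 10.94 in TM, 10.83, 10.89, 11.20 and 10.72 in TP and from 4.16 to 9.02 with a median of 5.98 in liver cells, with no overlap (4.69 ± 0.25, adjusted p = 3.00e-15). Hspb6, a small heat shock protein best known from muscle, was uniformly high in tumors, from 9.67 to 10.28 with a median of 10.01, and uniformly low in liver cells, from 6.54 to 7.38 with a median of 6.90 (3.05 ± 0.09, adjusted p = 8.93e-21). Hspb11, an intraflagellar transport subunit, was higher by 2.35, but its second probe was above background in no channel. Dnajc9, a histone chaperone, was higher in tumors without overlap, from 12.12 to 13.54 with a median of 12.93 against 9.81 to 11.63 with a median of 10.80 (2.27 ± 0.17, adjusted p = 3.21e-12). Hspa4 and Hspa4l, HSP110 exchange factors, were higher by 1.93 and 1.53, although 1 of the 3 probes of Hspa4 gave 0.19 (adjusted p = 0.0638). On the lower side stood Hspb2, a small heat shock protein of muscle (-3.81 ± 0.29, adjusted p = 6.01e-12). Hspb2 was well above background in all 4 TM channels and in no TP channel, and liver cells exceeded the signal TP could have shown at least 4.7-fold. Dnajc5, a synaptic vesicle DnaJ protein, was lower by 1.84 on the probe used and by 1.74 on another, while a further pair of its probes gave -0.06 and -0.12. Dnajb5 had 1 probe called higher (1.04) and 1 called lower (-1.25), so its direction is not settled either. On a list of co-chaperones and heat shock factors outside the families, the higher ones included Bag2 (5.23), Fkbp4 (2.27) and Hsf1 itself (1.21). Of that list of 20, 11 were higher (all genes, 35.2%) and 5 lower (all genes, 23.3%). Its lowest difference was -3.38.

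Within slide 2, where tumors and Kupffer cells lay together, all 45 called members kept their sign. No tumor array lay on the first slide, so the slide as a block gives these same differences from Kupffer cells. It is not a second check, nor a comparison with all liver cells. With it 37 of the 45 were called, and 47 members in all, 31 of them higher (all genes, 31.1%) and 16 lower (all genes, 21.7%). Scaling to the 75th percentile moved the median over all genes from 0.09 to 0.47 and gave 34 members higher (all genes, 49.5%) and 18 lower (all genes, 21.9%), so that 65.4% of calls were higher, against 53.3%. RNA per cell and cell number cannot be told apart in bulk samples.

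The next question is how the control liver cells differ among themselves, all on Cy3. Control Ito cells had higher levels of Hspa1a and Hsph1 than control endothelial cells, and control Kupffer cells had lower levels of many cytosolic, mitochondrial and endoplasmic reticulum chaperones. Between Ito and endothelial cells, on the same slide, 6 members were higher in Ito cells (all genes, 4.96%) and 10 lower (all genes, 6.61%). All 7 cytosolic heat shock genes had a positive difference, with a median of 0.58 against 0.00 over all genes, and 3 were called. The 16 calls in all became 6 without replicate 1 of every group (all genes, 5.92%) and 8 without replicate 3 (all genes, 5.78%). Without overlap 9 members lay higher (all genes, 11%) and 11 lower (all genes, 13.4%) in IC.

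**Figure D2:**
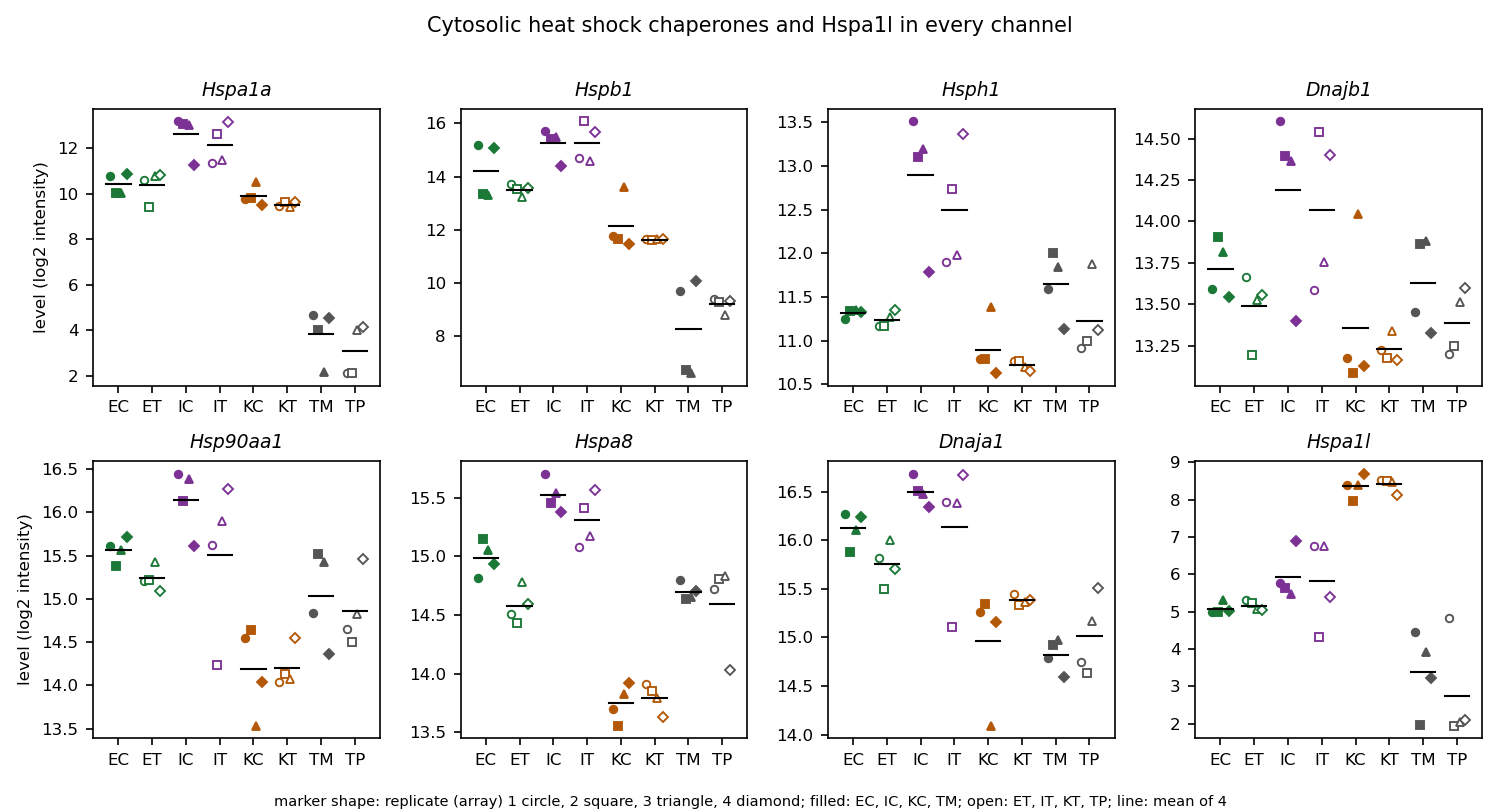
Level of 7 cytosolic heat shock chaperones and of Hspa1l in every channel, as log2 intensity, by group. Marker shape gives the replicate number, filled markers are Cy3 and open ones Cy5 channels, and lines are means of 4 channels. All 4 IC channels lie above all EC channels for Hspa1a, the 8 tumor channels lie lowest for Hspa1a and Hspb1, and for Hspa1a, Hsph1 and Dnajb1 the open Ito diamond (array 4) lies above the filled one, against the order of the circles and triangles.

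Hspa1a was 13.18, 13.06, 13.02 and 11.26 in IC and 10.79, 10.04, 10.02 and 10.87 in EC. The groups did not overlap (2.20 ± 0.55, adjusted p = 0.00928), and without IC replicate 4, the lowest IC channel, the difference was 2.65, adjusted p = 0.002. Hsph1 showed the same order, with 13.51, 13.11, 13.20 and 11.78 in IC and 11.24, 11.34, 11.35 and 11.32 in EC (1.59 ± 0.30, adjusted p = 0.000793). Hspa8 was higher by 0.53 (adjusted p = 0.0168), although 1 of its 3 probes gave 0.29 (adjusted p = 0.405), and its call was lost without replicate 1 (adjusted p = 0.24) or 3 (adjusted p = 0.104). Hspb1 (1.02 ± 0.62, adjusted p = 0.388), Hsp90aa1 (0.58 ± 0.32, adjusted p = 0.339) and Dnajb1 (0.48 ± 0.24, adjusted p = 0.259) did not pass the test, nor did Dnaja1 (0.37), Hspd1 (0.45), Hspe1 (0.51) or Hspa9 (0.24). The call of Hspa1a was lost when replicate 1, 2 or 3 was left out (adjusted p from 0.0669 to 0.111), while its difference stayed between 1.92 and 2.13. Hspa4l was also higher (1.28 ± 0.24, adjusted p = 0.000753). Genes of the early response to cell isolation, such as Fos, were summed over 8 members: the sum was 16.39, 16.22, 16.19 and 15.24 in IC replicates 1 to 4 and 15.57, 15.06, 15.01 and 15.63 in EC. The summed hepatocyte markers were 17.20, 17.44, 17.29 and 18.59 in IC and 15.21, 14.98, 15.07 and 15.16 in EC. In IC the Kupffer markers were all positive against EC and 3 of 8 passed the test. The hepatocyte sums, and the early response sums of replicates 1 to 3, were higher in IC than in EC, as were Hspa1a and Hsph1. Within IC, replicate 4 had the highest hepatocyte sum and the lowest Hspa1a and Hsph1. The part of these markers in the result was not tested.

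In the endoplasmic reticulum 6 of the 8 members had a negative difference between Ito and endothelial cells, with a median of -0.32, and Dnajc10 (-0.67 ± 0.17, adjusted p = 0.00961) and Dnajc3 (-0.56 ± 0.16, adjusted p = 0.0186) were called lower. The call of Dnajc3 was lost without replicate 1, 3 or 4 (adjusted p from 0.098 to 0.129). Hspa5 (-0.47), Hsp90b1 (-0.59) and Dnajb9 (0.27) did not pass the test. Dnajb11 was called higher by 0.80 on its dim probe and lower by 0.92 (adjusted p = 0.000264) on its bright one. In the list of other endoplasmic reticulum genes, 5 of 18 were lower, namely Calr, Creld2, Hyou1, Manf and Pdia3, from -0.92 to -0.85, and none was higher. Elsewhere, Hspb2 was 6.65 to 7.88 in the 4 IC channels against 10.18, 10.09, 10.17 and 10.09 in EC (-3.04 ± 0.50, adjusted p = 0.000158), and Hspa12b, an HSP70 of endothelial cells, was 3.95, 3.95, 4.24 and 4.65 against 6.14, 6.76, 6.61 and 6.20 (-2.23 ± 0.70, adjusted p = 0.0418), well above background in 1 of 4 IC channels and in all EC channels. The difference of Hspa12b was -0.80 (adjusted p = 0.153) with normexp and quantile normalization and -0.79 (adjusted p = 0.139) with loess, and its call was also lost with the 75th percentile (adjusted p = 0.0633) and without replicate 1, 2 or 4 (adjusted p from 0.0831 to 0.246). Dnajc17, a splicing-associated DnaJ protein, was lower without overlap (-1.32 ± 0.19, adjusted p = 4.08e-05). Dnajc19 was higher (2.42) on one probe and lower on the other (-0.89, adjusted p = 0.0325).

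Control Kupffer cells had lower levels of many members than both other cell types. Against endothelial cells 29 members were lower (all genes, 13.8%) and 5 higher (all genes, 9.76%), and the median of the members was -0.49 beside -0.01 over all genes. Against Ito cells 22 were lower (all genes, 8.45%) and 5 higher (all genes, 7.87%), with medians of -0.28 and -0.01. The lower calls were a larger share of the members than of all genes in both comparisons, a description with no test. Without overlap 31 members lay lower in KC than in EC (all genes, 17.8%) and 21 lower than in IC (all genes, 12.6%). One of the 29, Dnajc5g, was well above background in no channel. The Kupffer samples came from a different slide than the others, and cell type and slide cannot be told apart in these comparisons, and both share the control Kupffer samples. Without replicate 4 of every group, 25 members were called against endothelial cells (all genes, 21%) and 26 against Ito cells (all genes, 14.8%). Without KC replicate 3 the counts were 31 (all genes, 22.8%) and 27 (all genes, 14.6%). Beside 34 calls against endothelial cells and 27 against Ito cells with all channels, there were 20 without replicate 1 of every group (all genes, 16.5%) and 17 without replicate 3 of every group (all genes, 9.32%), respectively. All 8 hepatocyte markers were lower in KC than in IC (median -2.12), with sums of 16.13, 16.06, 14.06 and 15.23 in KC, while 1 of the 8 was higher than in EC and none lower. Of 8 early response genes, 2 were higher in KC than in EC and 1 was lower than in IC. Of the 8 Kupffer markers, none was called between KC and IC (median 0.62). The part of all these markers in the chaperone differences was not tested.

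**Figure D3:**
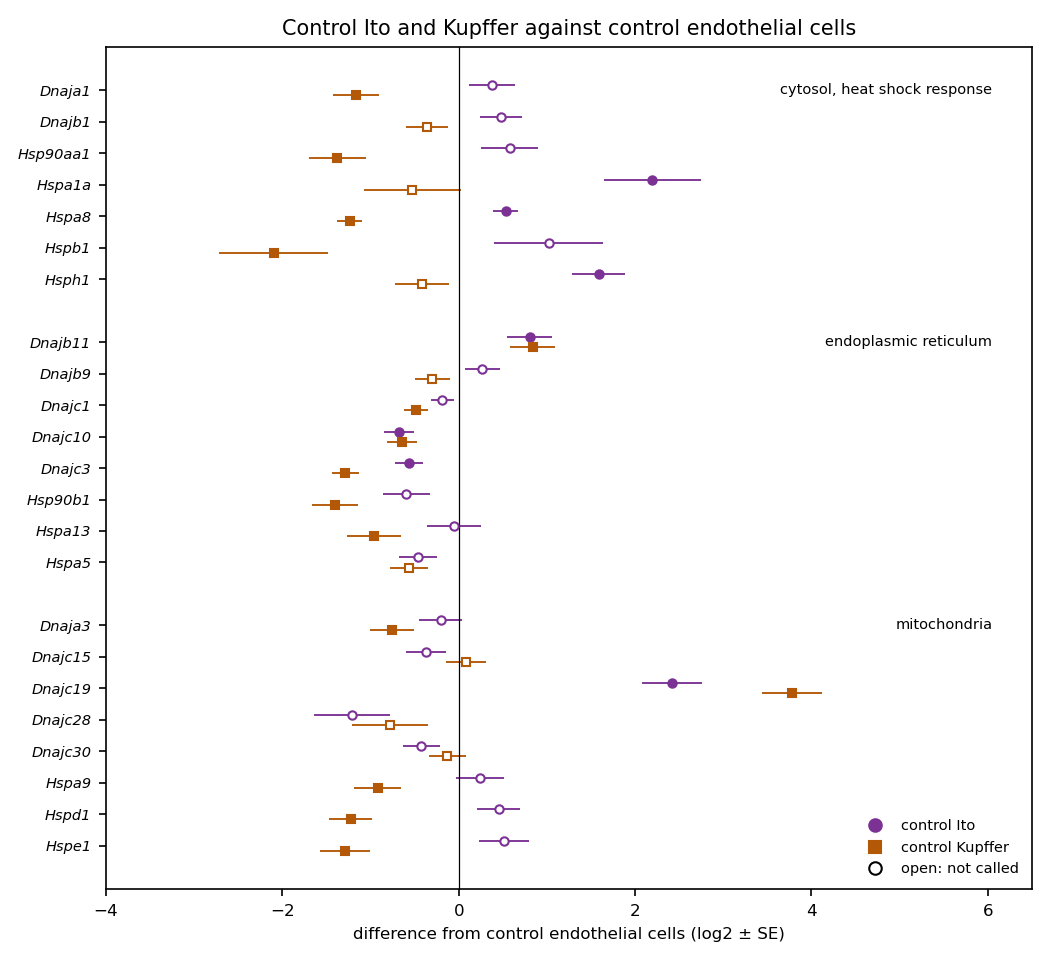
Differences of control Ito (circles) and control Kupffer cells (squares) from control endothelial cells for the 23 members assigned to cytosol, endoplasmic reticulum and mitochondria, in log2 units with standard errors. Filled markers were called and open ones were not. Kupffer cells lie left of zero for all 7 cytosolic genes and for 7 of 8 endoplasmic reticulum genes, while Ito cells lie right of zero for the cytosolic genes.

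The cytosolic set had a median difference of -1.16 from endothelial and -1.95 from Ito cells. Hspa8 was 13.70, 13.56, 13.82 and 13.92 in KC, below every EC and IC channel (14.81, 15.15, 15.06 and 14.93 in EC), with differences of -1.24 ± 0.14, adjusted p = 5.55e-07 from EC and -1.77 ± 0.14, adjusted p = 9.20e-09 from IC. One of its 3 probes gave only -0.02 and -0.31. Hsp90aa1 was 14.54, 14.64, 13.53 and 14.04 in KC, 15.61, 15.38, 15.57 and 15.71 in EC and 16.45, 16.13, 16.38 and 15.61 in IC, lower by 1.38 and 1.95 (adjusted p = 0.00253 and 0.000124). Against EC the call of Hsp90aa1 was lost without replicate 3 (-1.16, adjusted p = 0.0603). Hspb1 was 11.76, 11.67, 13.61 and 11.48 in KC, where replicate 3 overlapped EC. It was lower than in EC by 2.10 (adjusted p = 0.0146) and by 2.59 without that channel, but the call was lost without replicate 1 (-1.66, adjusted p = 0.166) or replicate 4 (-1.60, adjusted p = 0.128). All 7 genes were lower than in Ito cells, from -0.83 for Dnajb1 to -3.12 for Hspb1, and 4 of the 7 were lower than in endothelial cells. The call of Dnajb1 against IC was lost in the fit of only the groups compared (adjusted p = 0.178), with the methods' t-test (adjusted p = 0.218) and without replicate 1 (adjusted p = 0.212) or 2 (adjusted p = 0.151). Hspa1a in KC was 9.77, 9.82, 10.53 and 9.51, lower than in IC (-2.72 ± 0.55, adjusted p = 0.000957) and not called against EC (-0.53 ± 0.55, adjusted p = 0.599). Hsph1 and Dnajb1 did not pass the test against EC (-0.42 and -0.36). Dnaja1 (-1.16), Dnaja2, Dnaja3 and Dnaja4, all 4 DNAJA genes, were lower than in endothelial cells, and 3 of them than in Ito cells.

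In the mitochondria, Hspd1 was 13.02, 13.09, 12.56 and 12.30 in KC against 13.75, 14.23, 14.18 and 13.72 in EC and 14.78, 14.54, 14.65 and 13.72 in IC, and Hspe1 was 10.49, 10.47, 9.86 and 9.78 against 11.42, 11.53, 11.39 and 11.42 and 12.28, 12.06, 12.04 and 11.44. Neither gene overlapped, and the pair differed from EC by -1.22 ± 0.24, adjusted p = 0.000485, and by -1.29 ± 0.28, adjusted p = 0.00119. Hspa9 was lower as well (-0.92 and -1.16), although the call against EC was lost without replicate 1, 2 or 3 (adjusted p from 0.0504 to 0.061) and with the 75th percentile (adjusted p = 0.0519). All 8 CCT subunits were lower than in endothelial cells, from -0.81 for Cct4 to -1.30 for Cct6a, and all 8 were lower than in Ito cells. Grpel1, the exchange factor of Hspa9, was lower by 1.30 than in endothelial cells. In the endoplasmic reticulum 5 of 8 members were lower than in endothelial cells, with Hsp90b1 at -1.40 and Dnajc3 at -1.29, whereas Hspa5, at 16.43, 16.42, 16.27 and 15.76, did not pass the test (-0.57 ± 0.22, adjusted p = 0.0641), nor did Dnajb9 (-0.30 ± 0.20, adjusted p = 0.349). Dnajb11 was called higher on its dim probe (0.84) and not on its bright one (-0.34, adjusted p = 0.137). Of 20 cochaperones and heat shock factors, 13 were lower (all genes, 13.8%) and 1 higher (all genes, 9.76%). They included Hsf1 (-1.07), the main heat shock factor, and Stip1 (-0.68), which joins HSP70 to HSP90.

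A few members were higher in Kupffer cells. Hspa1l was 8.40, 7.95, 8.39 and 8.70 in KC, 5.77, 5.63, 5.48 and 6.89 in IC and 4.99, 4.99, 5.32 and 5.02 in EC, with no overlap (3.28 ± 0.55, adjusted p = 6.71e-05 from EC, and 2.42 ± 0.55, adjusted p = 0.00279 from IC). The call of Hspa1l against IC was lost without replicate 3 (adjusted p = 0.0537). In TME Kupffer cells it was 8.53, 8.49, 8.48 and 8.12. IC replicate 4, at 6.89, was the IC channel with the highest summed Kupffer markers (18.73 against 16.43 to 16.74 in the other IC channels). It also had the highest summed hepatocyte and neutrophil markers of the IC channels (18.59 and 13.80). KC replicate 3, with Hspa1l at 8.39, had summed Kupffer markers of 16.33. The part of these markers in the level of Hspa1l was not tested. Dnajb3, a testis DnaJ gene, was higher than in Ito cells by 2.45 (adjusted p = 0.000712) and well above background in 3 KC channels and 1 IC channel. Hspa4l was higher than in endothelial cells (1.05). Dnajc19 was higher on one probe (3.78) and not called on the other (-0.67, adjusted p = 0.0825). At the low end, Dnajc22 reached 5.09, 4.66, 4.16 and 4.83 in KC against 8.97, 7.06, 7.05 and 9.02 in EC (-3.34 ± 0.43, adjusted p = 2.41e-06), and Hspb8, a small heat shock protein of chaperone-assisted autophagy, was lower than in Ito cells by 2.32 (adjusted p = 2.84e-05).

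Comparing TME with control cells asks how chaperone levels differ where metastases grow in the liver. In endothelial cells few members passed the test, and the lowest adjusted p was that of Dnajc3, which was lower under TME. In endothelial cells no member was called higher (all genes, 0.764%) and 2 were called lower (all genes, 0.732%), Dnajc3 and Dnajc22. Dnajc3 was 9.02, 9.07, 9.03 and 8.83 in ET against 10.11, 9.79, 9.78 and 9.97 in EC, with no overlap and a negative difference on all 4 arrays (-0.92 ± 0.16, adjusted p = 0.00117, 1.89-fold lower). Without replicate 1 it missed the threshold (-0.87, adjusted p = 0.0616). Other genes of the endoplasmic reticulum also lay lower without passing the test. Hsp90b1 was 14.36, 14.71, 14.54 and 14.28 against 15.75, 15.18, 15.11 and 15.64 (-0.94 ± 0.27, adjusted p = 0.0966), Hspa5 16.10, 16.28, 16.12 and 16.07 against 17.13, 16.43, 16.54 and 17.05 (-0.65 ± 0.22, adjusted p = 0.224), and Dnajb9 8.68, 8.93, 8.62 and 8.66 against 9.45, 9.12, 9.18 and 9.35 (-0.56 ± 0.20, adjusted p = 0.293). None of these 3 genes overlapped between the groups, where 11 of the 71 members lay lower without overlap (all genes, 6.73%). In a fit of the endothelial samples alone, Hsp90b1 (adjusted p = 0.0248), Dnajb9 (adjusted p = 0.0273), Dnajc3 (adjusted p = 0.00271), Dnajc1 (adjusted p = 0.0422) and Dnajb4 (adjusted p = 0.0196) were called lower (all genes, 3%) and Dnajc19 and Hspb11 higher (all genes, 3.52%). The median of the 8 endoplasmic reticulum members was -0.44 beside 0.01 over all genes, and that of 18 further endoplasmic reticulum stress genes was -0.41, with 15 negative and Calr (-0.88) called. The 7 cytosolic heat shock genes all had negative differences with a median of -0.33, none called, among them Hspa1a (-0.03 ± 0.55, adjusted p = 1) and Hspa8 (-0.41 ± 0.14, adjusted p = 0.272). Hsph1 (-0.07), Dnajb1 (-0.23), Hsp90aa1 (-0.33), Dnaja1 (-0.37), Dnajb11 (-0.08), Hspd1 (0.13), Hspe1 (0.07) and Hspa9 (-0.18) did not pass the test.

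**Figure D4:**
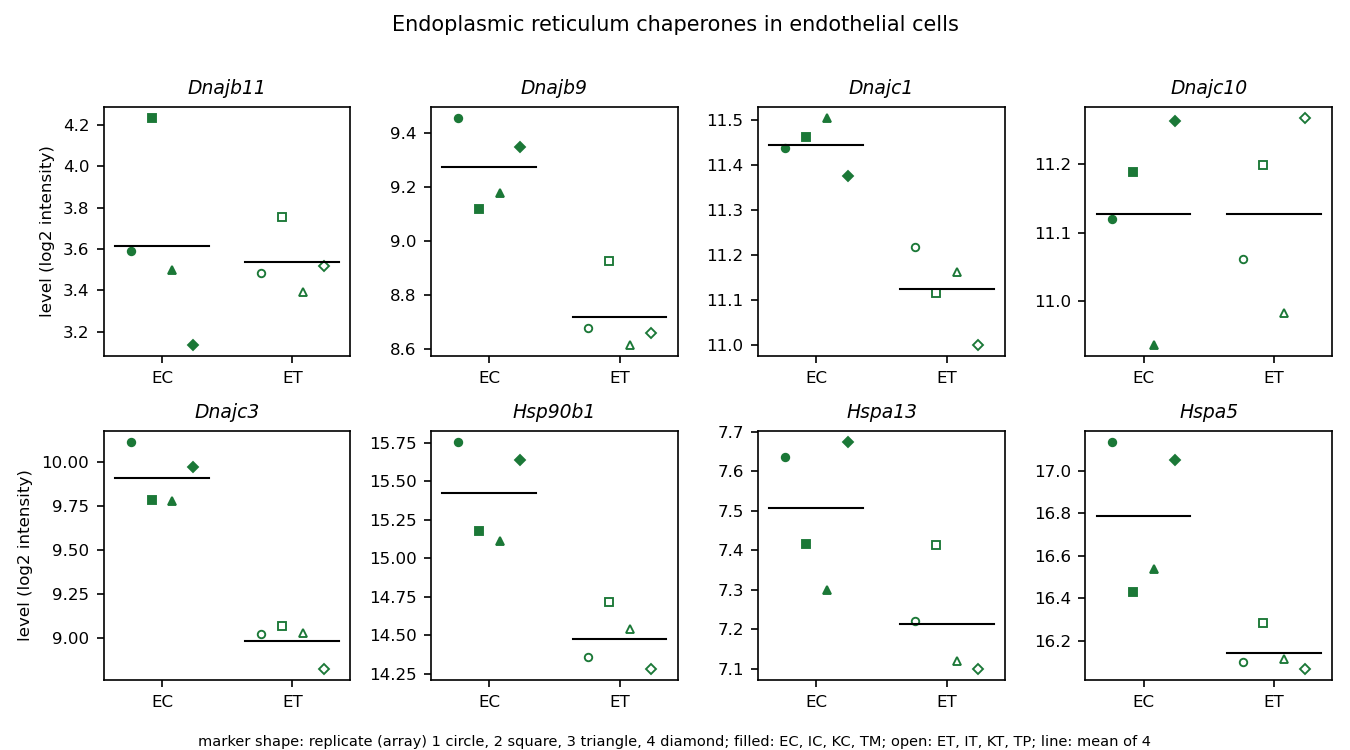
Level of the 8 members of the endoplasmic reticulum in the 4 control (filled, EC) and 4 TME (open, ET) endothelial channels, as log2 intensity, with group means as lines and marker shapes for the replicate number. Each panel has its own scale. ET channels lie below all EC channels for Dnajc3, Hsp90b1, Hspa5, Dnajb9 and Dnajc1, and overlap them for Dnajb11, Dnajc10 and Hspa13.

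Within EC, the channels split by pairs. Hspa5, Hsp90b1 and Hspb1 were higher in EC replicates 1 and 4 than in 2 and 3, with Hspb1 at 15.19, 13.34, 13.31 and 15.07, while its ET values were 13.73, 13.51, 13.22 and 13.58. The difference of Hspb1 on the 4 arrays was therefore -1.46, 0.17, -0.09 and -1.49, and it was not called (adjusted p = 1). Dnajc22 showed the same split, with 8.97, 7.06, 7.05 and 9.02 in EC and 6.59, 6.03, 5.84 and 6.59 in ET. It did not overlap (-1.76 ± 0.43, adjusted p = 0.0384), but the call was lost with any replicate left out (adjusted p from 0.0884 to 0.524) and with the array as a replicate block (-1.76, adjusted p = 0.122). The summed hepatocyte markers were 13.89, 15.12, 13.78 and 13.81 in ET and 15.21, 14.98, 15.07 and 15.16 in EC, and the neutrophil markers 11.66 to 12.92 and 8.86 to 9.67. All 6 neutrophil markers were positive in ET minus EC, none of them called. The part of these markers in the results was not tested.

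In Ito cells no member was called in either direction by limma (all genes, 0.368% higher and 0.0258% lower), with 7 of 71 members at an unadjusted p under 0.05, a share like that of all genes (10%). With array loess limma called 1 (all genes, 0.261%), and the methods' t-test 2 (all genes, 2%). Array 4 ran against the others. Hspa1a was 11.33, 12.61, 11.46 and 13.16 in IT against 13.18, 13.06, 13.02 and 11.26 in IC, so the array differences were -1.85, -0.45, -1.55 and 1.90. Those of Hsph1 were -1.61, -0.37, -1.22 and 1.58 and those of Dnajb1 -1.01, 0.15, -0.61 and 1.00. Arrays 1 and 3 lay below 0, array 4 above it, and array 2 between them.

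**Figure D5:**
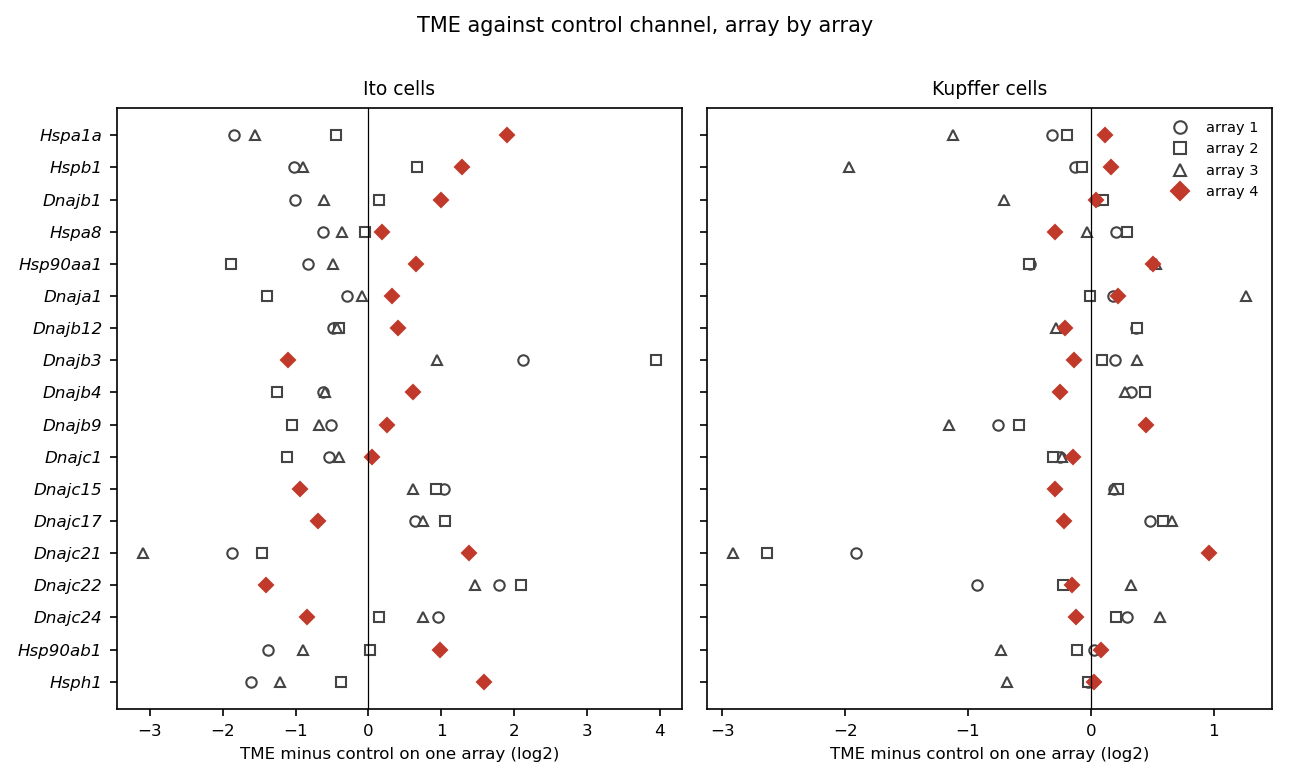
Difference between TME and control channel on each array, in log2 units, for Ito (left) and Kupffer cells (right). Rows are 6 cytosolic heat shock genes and the 12 members called in Ito cells without replicate 4, and red diamonds are array 4. In Ito cells array 4 lies on the opposite side of zero from arrays 1 and 3 for every gene drawn, though close to zero for Dnajc1.

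Without replicate 4, 7 members were lower (all genes, 4.03%) and 5 higher (all genes, 4.62%) in TME Ito cells. Hsph1 (-1.07, adjusted p = 0.011), Hsp90ab1, the constitutive cytosolic HSP90 (-0.75, adjusted p = 0.0475), Dnajb4 (-0.83, adjusted p = 0.0322), Dnajb9 (-0.75, adjusted p = 0.0177), Dnajb12, Dnajc1 and Dnajc21 were lower, and Dnajc22 (1.79, adjusted p = 0.00792), Dnajb3, Dnajc15, Dnajc17 and Dnajc24 higher. All 7 cytosolic heat shock genes then had a negative difference, with a median of -0.59 beside 0.00 over all genes. Hspa1a itself gave -1.28, adjusted p = 0.214, and Hsp90aa1 -1.07, adjusted p = 0.0559. With the sign of array 4 turned, 10 members were lower (all genes, 5.83%) and 10 higher (all genes, 5.9%), among them Hsph1 (-1.20, adjusted p = 0.000271), Hspd1 (-0.65, adjusted p = 0.0254) and Hsp90aa1 (-0.97, adjusted p = 0.0282). Without Ito arrays 2 and 4 there were 9 calls (all genes, 5.65%). IT replicate 2, on array 2, had summed epithelial tumor markers of 17.23 against 12.19 to 12.35 in the other IT channels. That sum was 11.78 to 13.27 in TM and 10.61 to 13.17 in TP. Of these 6 markers, 1 was called higher and 2 lower in tumors than in liver cells. Whether IT replicate 2 held tumor cells was not tested. The summed Kupffer markers of IT replicate 2 were 14.63 against 16.60 to 18.47 in the other IT channels. On arrays 1 to 3, 3 of 8 early response genes were lower and none higher, and 5 of 6 neutrophil markers were higher. On array 4 the summed early response was 15.24 in IC and 16.18 in IT, the reverse of array 1 (16.39 and 15.30). The part of these markers in the chaperone differences was not tested.

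In Kupffer cells no member was called either (all genes, 0.485% higher and 0.0574% lower), with 3 at an unadjusted p under 0.05 (all genes, 7.4%), and the methods' t-test called 0. Hspb1 and Hsph1 lay near 0 on all arrays but the third: Hspb1 differed by -0.13, -0.07, -1.97 and 0.17 on arrays 1 to 4 and Hsph1 by -0.02, -0.02, -0.69 and 0.03, where array 3 holds the KC channel that stood apart. Without replicate 4, Dnajb9 (-0.83, adjusted p = 0.0177) and Dnajc21, a ribosome assembly factor (-2.49, adjusted p = 0.00653), were lower (all genes, 1.82%) and Dnajc17 (0.58, adjusted p = 0.0413) was higher (all genes, 1.9%). Dnajb9 in KT was 8.24, 8.37, 8.31 and 8.94 against 8.49 to 9.47 in the 4 KC channels. Of the 6 neutrophil markers, 4 were higher on arrays 1 to 3, and their part in these differences was not tested. With the sign of array 4 turned, 4 members were called in Kupffer cells (all genes, 5.23%), Dnajb9 (-0.74, adjusted p = 0.00458) and Dnajc21 lower, Dnajc17 and Dnajc4 higher.

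Whether the TME change differed between cell types was tested in the same fit. No member passed for Ito against endothelial cells (all genes, 0.161%), Kupffer against endothelial cells (all genes, 0.118%) or Kupffer against Ito cells (all genes, 0.00287%). With an unadjusted p under 0.05 there were 6 (all genes, 4.83%), 6 (all genes, 4.12%) and 3 members (all genes, 3.89%). The lowest adjusted p for Ito against endothelial cells was that of Dnajc22 (difference of changes 2.75 ± 0.61, adjusted p = 0.0779). With array 4 turned, a setting chosen from these data, Dnajc22 gave 3.45, adjusted p = 7.04e-05. Dnajc3, for Kupffer against endothelial cells, gave 0.80 ± 0.22, adjusted p = 0.354.

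Between CRC primary and liver metastasis cells, Dnajc12 was higher and Hspb7 lower in TP, and both calls rested on a pair of TM channels. Of the members, 1 was called higher in TP (all genes, 2.18%) and 1 lower (all genes, 0.936%). Dnajc12, a DnaJ partner of aromatic amino acid hydroxylases, was 8.57, 8.57, 8.76 and 8.68 in TP and 8.30, 3.32, 3.83 and 8.37 in TM (2.69 ± 0.73, adjusted p = 0.0409). Hspb7, a small heat shock protein of heart, was 2.18, 2.24, 2.38 and 2.12 in TP and 3.38, 6.43, 6.42 and 2.20 in TM (-2.38 ± 0.57, adjusted p = 0.0187), and well above background in 2 channels. Without TM replicates 2 and 3 the differences were 0.31, adjusted p = 1, and -0.56, adjusted p = 0.758. The same pair of channels was low in Hspb1 and Dnaja4 and high in Hspb8, with Dnaja4 at 8.28, 4.32, 4.64 and 7.99 and Hspb8 at 10.60, 12.09, 11.82 and 10.49 in TM. Hspa1a, Hspb6, Hspd1 and Hspe1 did not pass the test between TP and TM (adjusted p from 0.554 to 0.964).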

How the data were processed

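RNA of 32 samples in 8 groups of 4 was hybridised in pairs to 16 two-colour Agilent arrays, scanned with Feature Extraction 10.7.3.1 per the file headers, with probe positions on mm9. Per the labels, groups followed the sample titles. The authors deposited a table of linear intensity values after quantile normalization, and its log2 was taken here. The deposited scanner intensity columns served for the detection calls (well above background) and for the alternatives. The number of arrays limits the precision.

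All 32 channels were fitted to 8 groups in limma 3.58.1 (R 4.3.3, and data.table, 1.17.8; lmFit, eBayes), with Benjamini-Hochberg adjustment over 55681 probes. A gene was called at an adjusted p under 0.05 on its probe with the highest variance. The scripts were tested on simulated data. Named in every comparison were Hspa1a, Hsph1, Dnajb1, Hsp90aa1, Hspb1, Hspa8, Dnaja1, Hspa5, Hsp90b1, Dnajb9, Dnajb11, Dnajc3, Hspd1, Hspe1 and Hspa9, and further the 4 largest differences each way among called members with the same sign on every array or with groups that did not overlap. Other members named, and the pair-wise exclusions of channels, were chosen after their values were seen. The members and lists were chosen with earlier results of these data known.

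Samples of one number shared an array. Their deviations from the group means correlated between -0.64 and 0.40 over the 16 arrays, so the numbers were not taken as pairs, and the array as a replicate block was an alternative. The other normalizations were normexp with quantile or loess, and 75th percentile or own quantile scaling of the scanner's processed signal without normexp. Further alternatives were a detection filter, the mean of a gene's probes, a fit of only the groups compared and the methods' t-test. A stricter threshold, the slide, the sign of array 4 and each replicate left out were also used. Bounds on folds used normexp with an offset of 50, loess and Aquantile.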

Additional observations from a re-analysis of the deposited data

Results flagged for a closer look

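In 12 of 120 groups of 4 channels tested among the genes named in every comparison, 1 channel lay far from the other 3 by Dixon's test. Chance alone gives about 1 in 20 groups. Hspa1a was 9.40 in ET replicate 2, against 10.59 to 10.81 in the other ET channels. In IC replicate 4 Hspa1a was 11.26, against 13.02 to 13.18, and Hspa9 was 13.87, against 14.61 to 14.69. KC replicate 3 stood apart for 3 genes, with Dnajb1 at 14.05 (the others 13.08 to 13.18), Hspb1 at 13.61 (11.48 to 11.76) and Dnaja1 at 14.09 (15.16 to 15.34). KT replicate 4 stood apart for 3 others, with Hspa5 at 16.47 (15.94 to 16.03), Hspd1 at 13.25 (12.61 to 12.70) and Hspa9 at 13.29 (12.77 to 12.83). Hspa8 was 14.03 in TP replicate 4, against 14.72 to 14.83. Dnajc3 was 8.39 in IT replicate 2, against 9.22 to 9.33. Hspd1 was 14.32 in ET replicate 2, against 14.01 to 14.05. IC replicate 4, KT replicate 4 and IT replicate 2 were also among the channels whose whole profile was nearest to a channel of another group (IC replicate 4 and KT replicate 4) or of another cell type (IT replicate 2).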

How the results depend on the processing

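Of 949 recomputed values of 65 called differences of named genes, 839 stayed past the threshold with the same sign, 109 kept the sign and lost the call, and 1 reversed: Dnajb11 in Ito against endothelial controls was -0.0565 as the mean of its probes. Of the 65, 36 stayed past the threshold wherever recomputed. Scaling to the 75th percentile moved the median over all genes to 0.27 (IC minus EC), 0.15 (KC minus EC), -0.19 (KC minus IC) and 0.10 (TP minus TM). With an adjusted p under 0.001 and a change of at least 4-fold, 13 members were called between tumor and liver cells, 2 in IC against EC, 3 in KC against EC, 5 in KC against IC, 0 in ET against EC and 0 in TP against TM. Leaving out replicates, channels or arrays, the counts ran from 6 to 21 (IC against EC, lowest without replicate 1, and 8 without replicate 3). They ran from 20 to 31 (KC against EC) and from 17 to 32 (KC against IC, highest without Ito arrays 2 and 4). For TME against control they were 0 to 1 (ET against EC), 0 to 12 (IT against IC) and 0 to 3 (KT against KC). They were 0 to 4 (TP against TM) and 0 to 1 (TME change in Ito against endothelial cells). With the array as a replicate block ET against EC had 1 call and not 2, and no other count of member calls moved by over 1.5 times, although Dnajc12 in TP against TM was lost there (adjusted p = 0.0613). The fit of only the groups compared and the methods' t-test gave 7 and 7 calls in ET against EC and 0 and 0 in TP against TM. TP against TM also had 1 call after normexp and quantile, 0 after loess, 0 with the 75th percentile, 1 with the detection filter and 0 without TM replicates 2 and 3. IT against IC had 1 call after loess, 2 with the methods' t-test, 20 with array 4 turned and 9 without arrays 2 and 4. KT against KC had 4 with array 4 turned. The TME change in Ito against endothelial cells had 1 call after loess, 1 with the filter and 4 with array 4 turned, Kupffer against endothelial cells 2 and Kupffer against Ito cells 1 with array 4 turned. The cause was not tested. Exclusions of single channels beyond replicate numbers, and the turning of array 4, were chosen after seeing the data. Members near background have only bounds.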
